A study of Nasonia vitripennis with 39 samples.

Results

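Gustatory receptor genes of the parasitoid wasp Nasonia vitripennis were read from poly(A) RNA-seq of heads and abdomens. They were chosen by symbol, as every gene whose symbol is Gr followed by a number, which gave 46 of the 14621 genes in the count table. Gr1 is not analysed here. Every library is of the Whiting Polyploid Line (WPL), a laboratory line in which polyploidy arose spontaneously, from animals taken 1 day after emergence. Females carried 3 chromosome sets (3N) or 2 (2N), and males carried 2 (2N) or 1 (1N). Unfertilised eggs of this species give males, so 2N females and 1N males have the usual ploidy. Each kind of animal gave 5 head and 5 abdomen libraries, except the 2N females with 4 abdomen libraries, so that 39 libraries form 8 groups. The labels state neither whether a library is an animal or a pool nor which head and abdomen share an animal, and every group comes from the same line. The p-values therefore measure only the spread between these libraries. Libraries are called by the names the labels give them, such as B38.

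Gustatory receptors are membrane proteins of taste neurons that open as ion channels when a sugar, a bitter compound or another contact cue binds. In insects they sit in taste hairs of the mouthparts, antennae, legs, wings and ovipositor, and some members also act in the gut and brain. Gr2 belongs to the branch that in the honey bee and in Drosophila senses sugars, and Gr3 is the relative of Drosophila Gr43a, a fructose receptor that also reads sugar in the blood. The ligands of the other members named here are not stated, since their roles are not known with certainty in this species.

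The shallowest library summed to 16.3 M and the deepest to 132.03 M estimated counts (M, 1000000), with 20 libraries up to 30 M (shallow) and 19 above (deep). Deep libraries are 3 of the 3N female heads, 0 of the 2N female heads, 4 of the 2N male heads and 1 of the 1N male heads, and in abdomens 1, 1, 5 and 4 in the same order of animals. Levels are given as CPM, counts per 1000000 counts of the TMM-scaled library, and between genes as TPM, which also divides by gene length. The tissue labels were checked with the long-wavelength opsin Lop1, which lay between 1704 and 6738 CPM in heads and between 0 and 5.45 CPM in abdomens. The ovary gene oskar set 1 head apart. The 2N female head B21 had 95.2 CPM of oskar and 1.60 CPM of the germline gene nanos, where the other 19 heads had at most 16.01 and 0.287 CPM. B21 also had the fewest receptors of its group, with a count for 19 members and 5 at 0.2 CPM or more, and results that rest on it are given without it below. Or1, the odorant receptor used here as the marker of olfactory neurons, ranged widely within head groups, from 20.9 to 328 CPM in 3N females, 65.0 to 186 CPM in 2N females, 14.4 to 130 CPM in 2N males and 15.8 to 233 CPM in 1N males. The library labelled 1N male head B5D held the highest Or1 value of its group and the lowest Gr32 and Gr33 values. Its CYP9AG7, a cytochrome P450 at 0.310 CPM or less in every female head, stood at 4357 CPM, so its sex label was not contradicted.

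At a floor of 0.2 CPM more gustatory receptors were detected in heads than in abdomens, and more in males than in females, as a count with no test. A receptor was called detected in a group where it reached 0.2 CPM in at least 3 libraries. By that rule 21 of 46 were detected in some head group and 12 in some abdomen group. Heads gave 13 receptors in 3N females, 10 in 2N females, 17 in 2N males and 20 in 1N males. Abdomens gave 2 in 3N females (Gr2 and Gr3), 1 in 2N females (Gr3), 12 in 2N males and 11 in 1N males. Detected in both tissues were 10 members (Gr2, Gr3, Gr5, Gr6, Gr7, Gr14, Gr45, Gr47, Gr49 and Gr58). Detected in heads alone were 11 (Gr9, Gr18, Gr20, Gr25, Gr26, Gr28, Gr29, Gr32, Gr33, Gr39 and Gr40), and in abdomens alone 2 (Gr24 and Gr46). These 2 were not absent from heads. Gr24 had a count in 7 of 10 female and 9 of 10 male heads, and Gr46 in 6 and 9. The highest group mean of Gr24 was in 2N male heads (0.612 ± 0.519 TPM), where fewer than 3 libraries reached the floor. The remaining 23 reached the floor in no group, although most had scattered counts, and Gr52 had no count in any library. The share of all genes detected by this rule is not given here. The counts therefore do not show whether the receptors differ from other genes between these groups. These numbers also follow the floor. With at least 3 counts in place of 0.2 CPM, 36 were detected in heads and 17 in abdomens, and with 0.5 CPM 11 and 9. The order of the head groups changed too. The 2N and 1N male heads gave 31 and 27 receptors at 3 counts, 26 and 7 at 10 counts, and 9 and 7 at 0.5 CPM. At 10 counts the 3N female heads gave 10, more than the 1N male heads. A floor in counts is reached more easily in deep libraries.

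Deeper sequencing did not always go with more receptors. The 3N female heads had a count for 20 to 29 members in 3 deep libraries and for 32 to 35 in 2 shallow ones. The 3N female abdomen B38, with 79.3 M counts, held counts for 6 members, while its 4 shallow companions held 7 to 13. Low members were often present or absent by library. Gr49 had 0 counts in the 1N male abdomen B8 at 49.2 M, against 0.742 CPM in B10 at 53.4 M. Intervals and bounds given below cover counting error only, which is smaller than this spread between libraries.

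**Figure D1:**
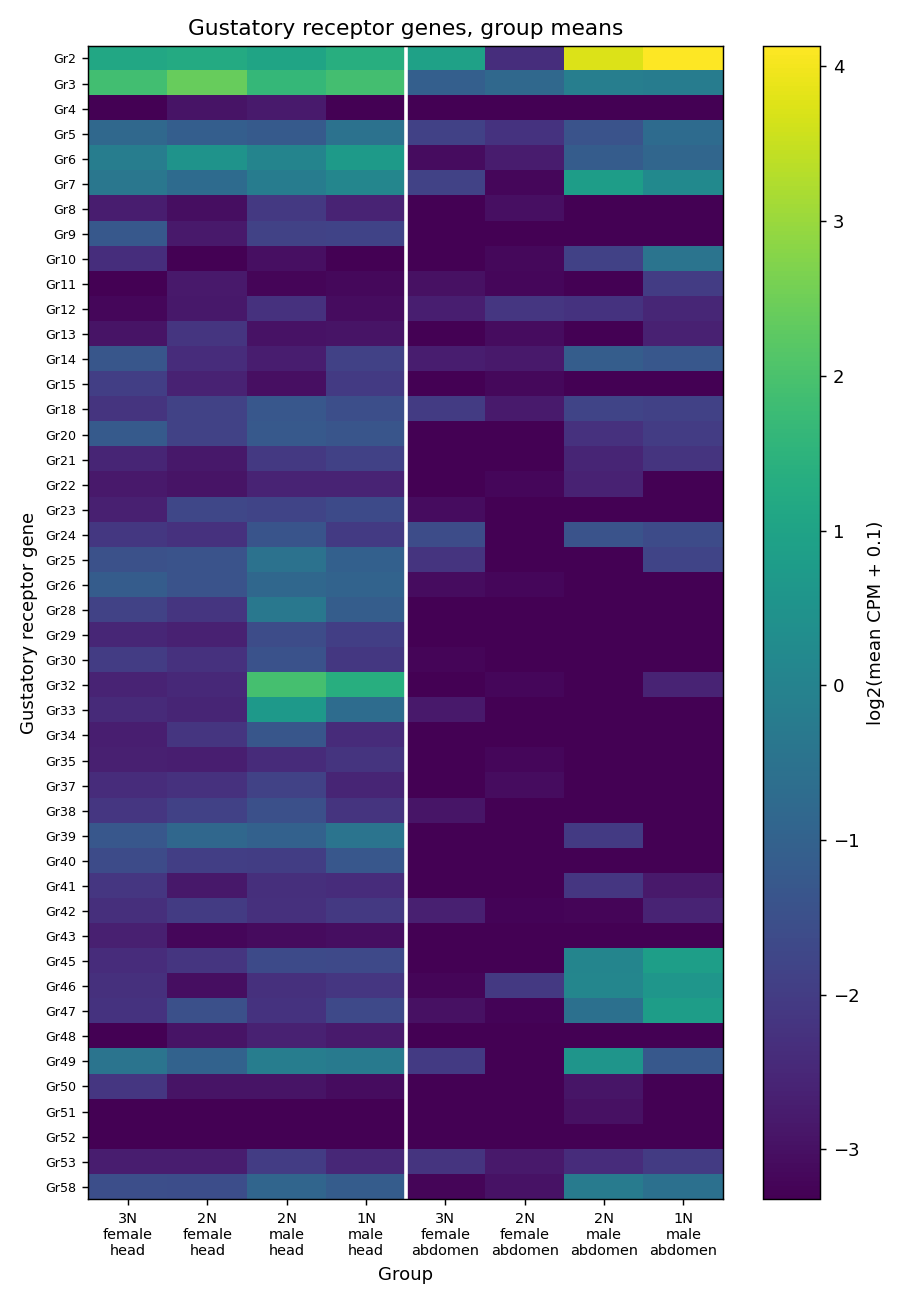
Mean level of each of the 46 gustatory receptor genes (rows) in the 8 groups (columns; heads left of the white line, abdomens right), shown as log2(mean CPM + 0.1). The brightest cells are Gr2 in male abdomens (13.3 and 17.4 CPM in 2N and 1N), Gr3 in all heads and Gr32 in male heads, while the female abdomen columns are dark for nearly every receptor.

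Summed over the family, the level was 21.8 ± 2.62 TPM in 3N female heads, 22.2 ± 5.59 TPM in 2N female heads, 34.8 ± 6.35 TPM in 2N male heads and 29.8 ± 2.92 TPM in 1N male heads (SD, n = 5 each). The 2N female head B21 had 13.1 TPM. Abdomens summed to 3.48 ± 2.06 TPM in 3N females, 1.63 ± 0.485 TPM in 2N females (n = 4), 17.2 ± 1.22 TPM in 2N males and 21.9 ± 6.52 TPM in 1N males. A few members carried these sums. Ordered by the mean in their highest group, Gr2 came highest with 9.36 ± 2.33 TPM in 1N male abdomens, then Gr32 with 7.70 ± 2.95 TPM in 2N male heads and Gr3 with 6.52 ± 1.75 TPM in 2N female heads, and these neighbours in the order lie within each other's SD. Below them stood Gr33 at 3.49 ± 1.62 TPM (2N male heads) and Gr6 at 3.17 ± 0.644 TPM (1N male heads). Gr45, Gr47 and Gr46 followed with 2.22 ± 2.92, 2.10 ± 3.10 and 1.70 ± 1.52 TPM in 1N male abdomens, where the SD is near or above the mean. The top member of a group supplied 16.5% of the family's TPM in 1N male heads (Gr32) and 42.7% in 1N male abdomens (Gr2).

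Gr2, the relative of sugar receptors, was low but present in every head library, and its abdomen level differed by sex and, in females, by ploidy. In heads it averaged 2.12 ± 0.330 CPM in 3N females, 2.28 ± 0.196 CPM in 2N females, 1.95 ± 0.517 CPM in 2N males and 2.43 ± 1.26 CPM in 1N males (SD, n = 5 each). The head groups overlap, and no comparison of Gr2 by sex or ploidy in heads passed edgeR's test (log2 differences from -0.32 to 0.21). In abdomens of 3N females it had 1.20, 0.204, 5.41, 0.924 and 1.40 CPM, against 0.0909, 0.0389, 0.0930 and 0.158 CPM in 2N females. Every 3N library lay above every 2N library, with B38 far above the others at 5.41 CPM and B39A nearest to the 2N range. The same complete split held for 14.4% of all 11884 genes fitted in abdomens. The 3N minus 2N log2 difference was 4.45 ± 0.74 (SE; adjusted p = 0.000136 by edgeR's quasi-likelihood test with Benjamini-Hochberg adjustment), and 3.46 without B38 (adjusted p = 0.000117).

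Male abdomens held far more Gr2. The values were 17.6, 10.1, 14.9, 13.1 and 10.7 CPM in 2N males and 20.003, 16.8, 23.4, 15.4 and 11.5 CPM in 1N males. All 10 male values lie above the highest female one, and the 2 male groups overlap. The share of all genes with this split is not given here. Splits of 2N females from a single male group are common in these abdomens. Of all genes fitted, 42.1% lay wholly lower in 2N females than in 2N males, and 37.8% wholly lower than in 1N males. The 2N female minus 2N male log2 difference was -7.17 ± 0.81 (adjusted p = 1.9e-07 by edgeR), and against 1N males it was -7.61 ± 0.82 (adjusted p = 1.11e-07). The 2N minus 1N male difference was -0.44 ± 0.52 and did not pass (adjusted p = 1). Sex by tissue at 2N, the sex difference in heads minus that in abdomens, was 7.32 ± 0.75 (adjusted p = 1.38e-10).

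The head minus abdomen difference of Gr2 therefore had a different sign in the sexes. It was 4.54 ± 0.60 in 2N females (adjusted p = 1.97e-08 by edgeR), -2.78 ± 0.45 in 2N males (adjusted p = 1.91e-06) and -2.84 ± 0.45 in 1N males (adjusted p = 1.49e-06). In 3N females it was 0.18 ± 0.43 and did not pass (adjusted p = 0.722). The ploidy effect in females differed between tissues, with a head minus abdomen value of -4.36 ± 0.72 (adjusted p = 1.17e-05). It also differed from the ploidy effect in male abdomens by 4.88 ± 0.90 (adjusted p = 0.000596). Gr2 was 1 of 13 receptors past that test, where 27.1% of all genes passed and 23.6% had a positive difference. Without B38 these values were -3.36 and 3.89, and both still passed. On log2(TPM + 1) with limma the difference between tissues just missed the threshold (-0.87, adjusted p = 0.0527). In the RefSeq table of assembly Nvit_psr_1.1, used here for gene order alone, Gr2 overlaps LOC100119944. That gene had 0.334 to 2.99 CPM in 2N male abdomens, below every Gr2 value there. In heads it averaged 3.04 CPM in 3N females, 3.30 in 2N females, 5.05 in 2N males and 4.88 in 1N males, above the Gr2 means. In 2N female abdomens it averaged 0.263 CPM against 0.0952 CPM of Gr2, and in 3N female abdomens 0.262 against 1.83 CPM. Whether reads of LOC100119944 were counted to Gr2 was not tested.

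Markers of tissue makeup also differed between these groups, and the muscle markers did not all go the same way. The germ plasm gene oskar lay at 391 to 954 CPM in 3N female abdomens and 975 to 1153 CPM in 2N female abdomens, and at 4.47 CPM or less in male abdomens. The muscle gene Zasp66 lay at 7.73 to 109 CPM in 3N females, 4.30 to 5.67 CPM in 2N females, 360 to 556 CPM in 2N males and 138 to 431 CPM in 1N males. Tm1, also a muscle gene, lay at 501 to 1394, 360 to 447, 1720 to 2198 and 1313 to 2669 CPM in the same order. Tm2, another muscle gene, went the other way, at 81.9 to 122 CPM in 3N and 129 to 153 CPM in 2N females. In males Tm2 lay at 57.2 to 66.0 CPM in 2N and 54.1 to 63.1 CPM in 1N animals. Library B39A, the 3N abdomen with the lowest Gr2, had the highest oskar of its group (954 CPM) and the lowest Zasp66 (7.73 CPM). It also had the highest Tm2 of its group (122 CPM). The part of these cell types in the receptor differences was not tested. In whole abdomens, fewer cells that express a receptor and less receptor RNA per cell cannot be told apart.

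**Figure D2:**
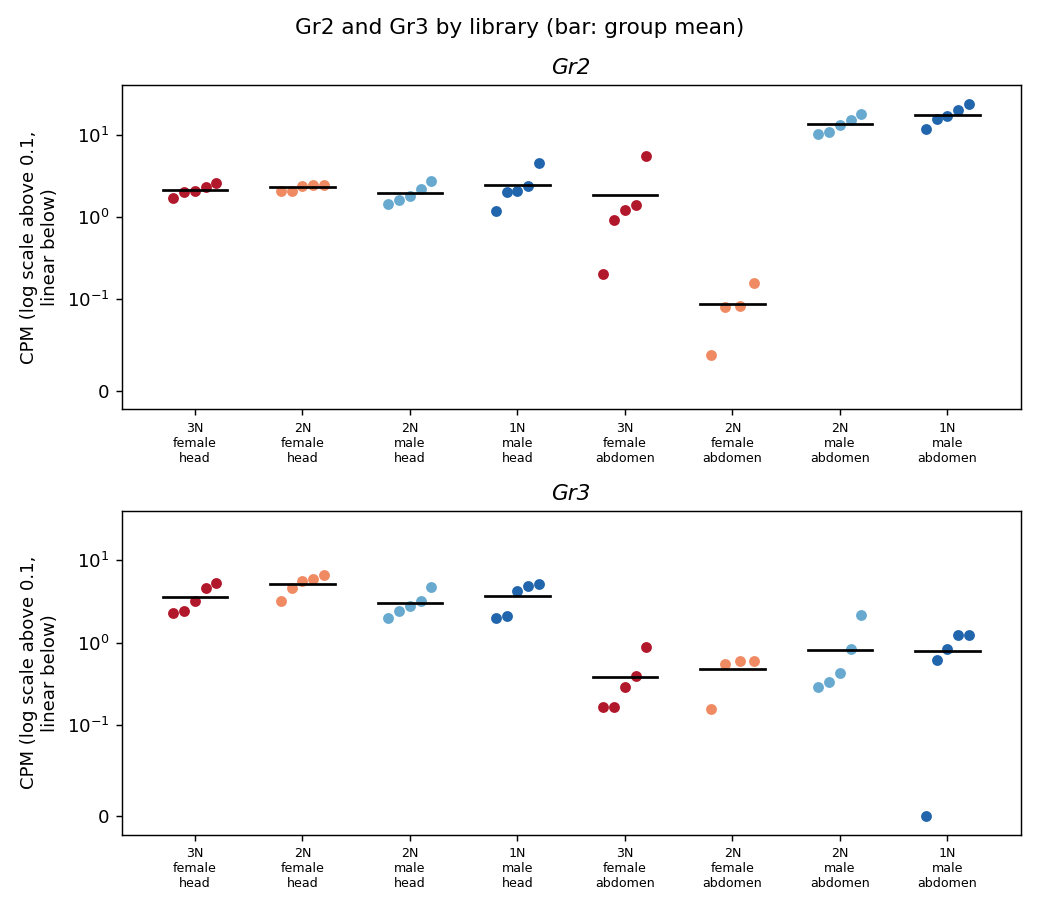
CPM of Gr2 (top) and Gr3 (bottom) in each library (points) with the group mean (bar), on an axis that is logarithmic above 0.1 and linear below. Gr2 in female abdomens is 0.204 to 5.41 CPM in 3N and 0.0389 to 0.158 CPM in 2N animals and at least 10.1 CPM in every male abdomen, whereas Gr3 lies higher in heads than in abdomens of every kind of animal, with overlap only in 2N males (lowest head 2.01 CPM, highest abdomen 2.16 CPM). Of all genes fitted, 28.6% in 3N females, 41.2% in 2N females and 22.7% in 1N males also lay wholly higher in heads.

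Gr3, the relative of the Drosophila fructose receptor, was also found in nearly every library, and it was higher in heads than in abdomens in all 4 kinds of animal. Heads had 2.26, 2.39, 5.28, 4.57 and 3.22 CPM in 3N females and 6.71, 5.58, 4.57, 5.92 and 3.16 CPM in 2N females. Male heads had 2.41, 2.01, 4.73, 3.19 and 2.81 CPM in 2N and 2.01, 2.11, 4.81, 4.25 and 5.13 CPM in 1N animals. All 4 head groups overlap. Abdomens stayed between 0.165 and 0.891 CPM in 3N females, 0.156 and 0.605 CPM in 2N females, 0.292 and 2.16 CPM in 2N males and 0 and 1.25 CPM in 1N males.

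The head minus abdomen log2 difference of Gr3 was 3.25 ± 0.63 in 3N females, 3.44 ± 0.69 in 2N females, 1.88 ± 0.58 in 2N males and 2.19 ± 0.59 in 1N males, with adjusted p between 2.49e-05 and 0.00526 by edgeR. Without the 2N male abdomen B16, at 2.16 CPM, the 2N male difference was 2.66, and without the 3N abdomen B36A the 3N female one was 3.84. Sex by tissue at 2N did not pass (1.55 ± 0.85, adjusted p = 0.0964). The 2N female heads averaged 5.18 ± 1.37 CPM against 3.03 ± 1.04 CPM in 2N male heads, a log2 difference of 0.75 ± 0.32 that did not pass (adjusted p = 0.0922). Gr3 overlaps 5 other genes in the annotation, among them Tmem59l at 336 ± 15.03 CPM in 2N female heads and 53.2 ± 7.31 CPM in 2N female abdomens. Of its 39 deposited values 33 were not whole numbers, so its reads were partly shared out by estimation.

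Gr32 and Gr33 were the receptors called for sex in heads, with far higher levels in males. Both are adjacent in a run of 19 members that lie next to each other in the annotation, from Gr40 to Gr18, with 4 pseudogenes among them. Gr32 had 0.102, 0.106, 0.0486, 0.150 and 0 CPM in 2N female heads, against 3.22, 5.03, 2.44, 2.71 and 5.24 CPM in 2N male heads. The 2 groups do not overlap, and 13.5% of all genes fitted in heads also lay wholly lower in 2N females. The log2 difference was -5.50 ± 0.96 (adjusted p = 0.000316 by edgeR), and -5.22 without B21. The 3N female heads had 0, 0, 0, 0.226 and 0.110 CPM, within or near the 2N female range.

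In 1N male heads Gr32 had 0.0478, 5.29, 2.46, 2.26 and 2.24 CPM. The lowest of these is B5D, within the female range, and the other 4 lie above all females. The 2N female minus 1N male difference was -4.89 ± 0.96 (adjusted p = 0.00125 by edgeR), and -5.23 without B5D (adjusted p = 6.41e-05). It was -4.81 among shallow libraries alone (adjusted p = 0.0133). It was -4.61 without B21 (adjusted p = 0.00417). Deep libraries are 0 of 5 in 2N female and 4 of 5 in 2N male heads. With a term for deep libraries the 2N difference was -4.93 (adjusted p = 0.00441).

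Gr33 followed at a lower level. It had 0, 0.159, 0, 0.201 and 0 CPM in 2N female heads, against 1.83, 2.15, 1.45, 0.413 and 1.86 CPM in 2N male heads, again without overlap. The log2 difference was -4.42 ± 1.04 (adjusted p = 0.00344 by edgeR), -5.28 without the 2N female head B22, -4.14 without B21 (adjusted p = 0.0108) and -3.64 with a term for deep libraries, where it just missed the threshold (adjusted p = 0.0529). The 1N male heads had 0, 0.817, 1.03, 0.396 and 0.362 CPM. Here B5D was at 0 and the other 4 lay above all females. Against 1N males the difference was -2.89 ± 1.05 and did not pass (adjusted p = 0.0561), while without B5D it was -3.22 (adjusted p = 0.021), without B22 -3.74 (adjusted p = 0.0475) and by DESeq2 -2.90 (adjusted p = 0.034).

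Some muscle genes also differed between the 2N sexes in heads, while 3N female and 1N male heads overlapped. Zasp66 lay at 31.6 to 94.99 CPM in 3N female heads and 17.3 to 50.8 CPM in 2N female heads, against 71.2 to 167 CPM in 2N male heads and 35.5 to 135 CPM in 1N male heads. The tropomyosin gene Tm1 lay at 282 to 425 CPM in 3N and 223 to 357 CPM in 2N females, against 412 to 1723 CPM in 2N and 315 to 647 CPM in 1N males. The 2N sexes do not overlap in either gene, and the value of 1723 CPM is B12A, whose group otherwise ended at 531 CPM. Tm2, the other tropomyosin gene, overlapped between the sexes at 59.3 to 68.2 CPM in 2N female and 55.3 to 71.2 CPM in 2N male heads. The part of muscle in the receptor differences in heads was not tested.

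These were the calls for sex in heads. At 2N, 2 of the 10 receptors fitted in heads passed, both lower in females, where 27.9% of all 10846 genes passed and 15.9% were lower. At usual ploidy 1 passed, Gr32, also lower in females, where 21.6% of all genes passed and 13.1% were lower. The other 36 members had too few counts for the fit. Gr32 and Gr33 were detected in no female head group, so they entered the fit through their level in males. That choice in part sets the direction of their differences. The median log2 difference was -0.30 over the 10 receptors and 0.02 over all genes at 2N. Odorant receptors, the larger chemosensory family, gave 13 higher and 2 lower in females of 95 fitted (median 0.50). No symbols of ionotropic receptors, odorant binding proteins or chemosensory proteins were found in the table. Because the fit keeps a low gene when it is high in 1 group, these counts and medians describe the receptors that were fitted and not the family. The same holds for the counts in abdomens and between tissues below. Without B21 the calls for sex in heads numbered 2 at 2N and 1 at usual ploidy, as with it.

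**Figure D3:**
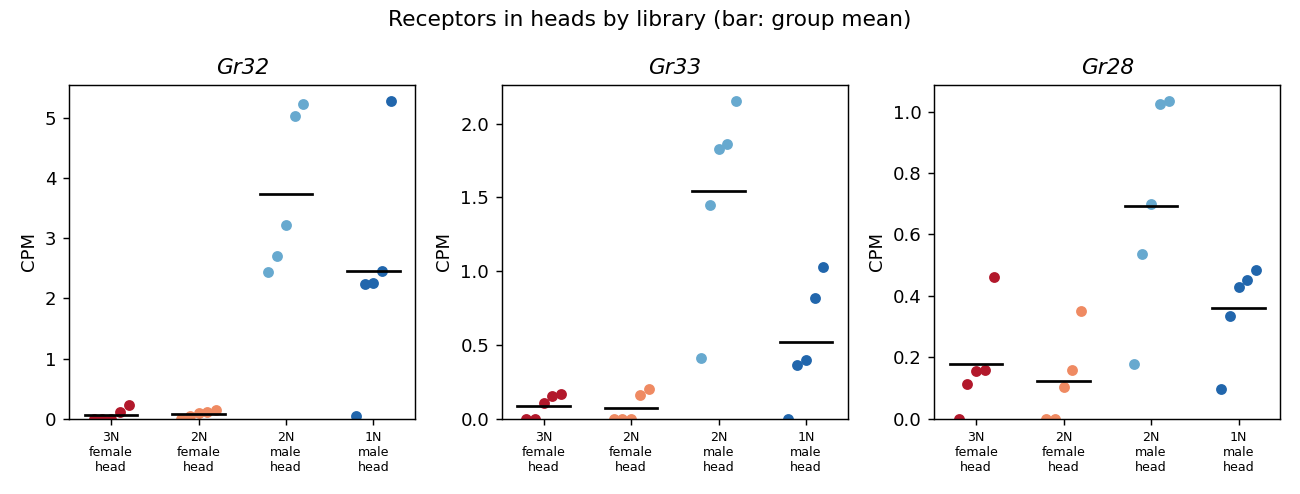
CPM of Gr32, Gr33 and Gr28 in each head library (points) with the group mean (bar), on linear axes that differ between panels. Gr32 is at 0.226 CPM or less in all female heads and at 2.24 CPM or more in 9 of 10 male heads, the exception being the 1N male head B5D at 0.0478 CPM; Gr33 shows the same split at lower levels, and Gr28 overlaps between the sexes.

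Most of the other members of this run were near the floor. Counted against the highest female head, male heads lay above it in 9 of 10 libraries for both Gr32 and Gr33, 6 for Gr25, 5 for Gr28 and 5 for Gr18, and in 3 or fewer for the remaining 14. The same count over all genes is not given here, so these numbers do not set the run apart. Gr28 averaged 0.177 ± 0.170 CPM in 3N female, 0.123 ± 0.145 CPM in 2N female, 0.694 ± 0.360 CPM in 2N male and 0.359 ± 0.157 CPM in 1N male heads (SD, n = 5 each), but had too few counts for the head fit. Gr25 averaged 0.258 ± 0.0627, 0.271 ± 0.186, 0.606 ± 0.258 and 0.392 ± 0.132 CPM in the same order, and also was not fitted. Gr39 and Gr26 were fitted and did not differ by sex past the threshold. Gr39 averaged 0.461 ± 0.259 CPM in 2N female and 0.398 ± 0.208 CPM in 2N male heads (log2 0.14 ± 0.53), and Gr26 averaged 0.275 ± 0.242 and 0.463 ± 0.250 CPM (log2 -0.81 ± 0.63).

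**Figure D4:**
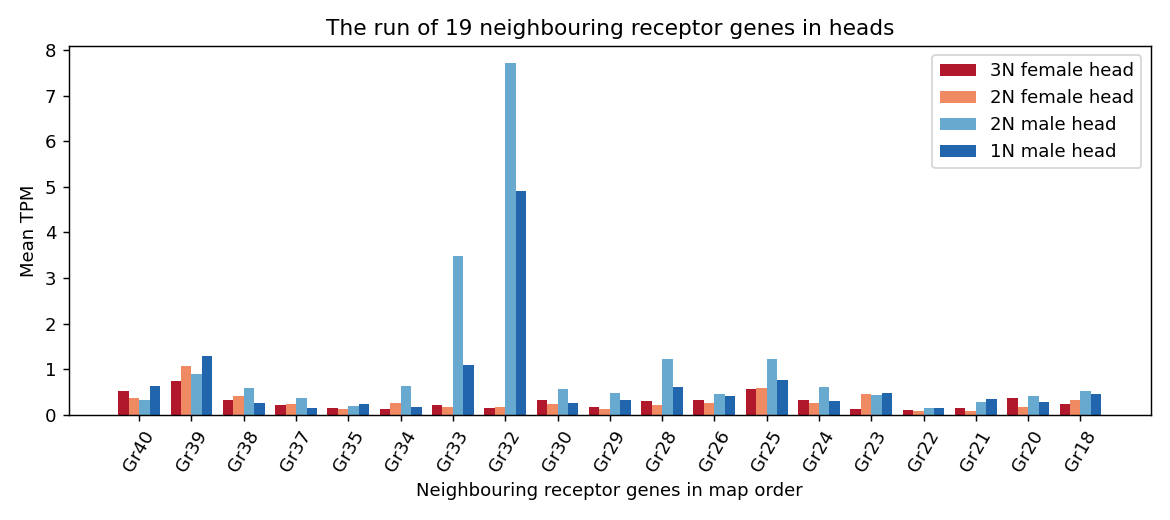
Mean TPM in the 4 head groups for the 19 members of the largest run of neighbouring receptor genes, in map order from Gr40 to Gr18; bars are group means of 5 libraries. Gr32 reaches 7.70 TPM in 2N and 4.91 TPM in 1N male heads and its neighbour Gr33 3.49 and 1.09 TPM, while no other member of the run exceeds 1.296 TPM in any head group.

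No receptor passed the test for ploidy in heads. In 2N against 1N male heads 0 of 10 receptors passed edgeR's test, where 0.0738% of all genes passed. In 3N against 2N female heads 0 of 10 passed, where 0.313% of all genes passed. In both comparisons 0 had an unadjusted p under 0.05, and DESeq2 also called 0. The log2 differences ran from -0.80 (Gr6) to 1.54 (Gr33) in males and from -0.76 (Gr6) to 0.64 (Gr49) in females. Gr33 averaged 1.54 ± 0.679 CPM in 2N and 0.521 ± 0.406 CPM in 1N male heads, with overlapping groups. Its log2 difference had an SE of 0.82 and did not pass, which does not show that the groups are equal. Gr6 averaged 0.790 ± 0.519 CPM in 3N female, 1.32 ± 0.421 CPM in 2N female, 0.919 ± 0.220 CPM in 2N male and 1.58 ± 0.306 CPM in 1N male heads. The ploidy effect did not differ between the sexes in heads past the threshold for any of the 10, with 0 at an unadjusted p under 0.05, 0 by DESeq2, and 0% of all genes passing.

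In abdomens the calls for sex were all of receptors lower in 2N females than in males. No comparison of 3N females with males was made, and 3N females held more of some of them than 2N females did, as given with ploidy below. At 2N, 9 of 13 fitted receptors passed by edgeR, all lower in females (Gr2, Gr7, Gr14, Gr24, Gr45, Gr46, Gr47, Gr49 and Gr58). The background is large, since 83.5% of all 11884 genes passed and 46.3% were lower in females. The same 9 passed at usual ploidy, where 83.6% of all genes passed and 47% were lower. Gr3, Gr5, Gr6 and Gr18 passed in neither. Of the 13, only Gr2 and Gr3 were detected in any female abdomen group, so most entered the fit through their level in males, and that choice in part sets the direction of their differences. Of 48 odorant receptors fitted 4 were higher and 22 lower. The ovary and muscle markers above differ between the same groups.

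Gr45, Gr46 and Gr47 are neighbours in the annotation and were much higher in male than in female abdomens. Gr45 had 0 counts in all 9 female abdomens. It had 0.580, 1.17, 0.668, 0.752 and 1.57 CPM in 2N male abdomens and 0.832, 0.580, 0, 1.49997 and 5.58 CPM in 1N male abdomens. It was thus present in 9 of 10 male libraries, with 1N library B6A far above the rest. Against 2N males the level in 2N females was at least 38.6-fold lower, and against 1N males at least 41.2-fold lower, counting 3 counts over the group of females (adjusted p = 0.00218 and 0.00122 by edgeR).

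Gr47 had 0, 0, 0.0233 and 0 CPM in 2N female abdomens, against 0, 0.747, 0.759, 0.711 and 0.630 CPM in 2N males and 0.450, 0.654, 0, 1.23 and 5.998 CPM in 1N males. With 1 count in all 2N females, the male to female ratio was 66.9 for 2N males (95% counting interval 11.9 to 2655, adjusted p = 0.00948 by edgeR) and 114 for 1N males (20.2 to 4524, adjusted p = 0.00243). That count is in B27, without which the fitted log2 differences were -7.59 and -9.14, compared with -5.82 and -7.38 with it. The 2N call was lost on log2(TPM + 1) with limma (adjusted p = 0.0998), a scale that shrinks differences between low values. Gr46 was also seen in 2N females, with 0, 0.350, 0.116 and 0.0789 CPM, against 0.720, 0.780, 0, 2.31 and 1.04 CPM in 2N males and 0.584, 1.01, 0.658, 1.12 and 3.72 CPM in 1N males. The 2N female and 2N male groups overlap at 0. The log2 difference was -2.90 ± 1.23 at 2N (adjusted p = 0.0362), which was lost without B30 (adjusted p = 0.092), B27 (0.0815), B26A (0.0892) or B17 (0.0933), and on library totals (0.0664). At usual ploidy it was -3.46 ± 1.26 (adjusted p = 0.0169), just lost without B26A (0.0503). Without B28A the 2 values were -3.89 and -4.44.

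Library B6A was the highest 1N male abdomen for all 3, at 5.58, 3.72 and 5.998 CPM against at most 1.49997, 1.12 and 1.23 CPM in the other 4. Without B6A the usual-ploidy differences were -8.05 for Gr45, -2.74 for Gr46 and -5.92 for Gr47, and all 3 still passed, compared with -9.18, -3.46 and -7.38 with it. All 3 genes lie inside the span of LOC103317736. That gene had 1.68 CPM or less in heads and 0.875 CPM or less in female abdomens, against 101 to 189 CPM in 2N male abdomens, 30.3 to 122 CPM in 4 of the 1N male abdomens and 985 CPM in B6A. The summed CPM of the 3 receptors was 0.821% to 2.57% of it in 2N and 1.55% to 3.16% in 1N male abdomens. Whether reads of LOC103317736 were counted to the receptors was not tested, and the strand setting of the counting is not given in the sources used here.

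**Figure D5:**
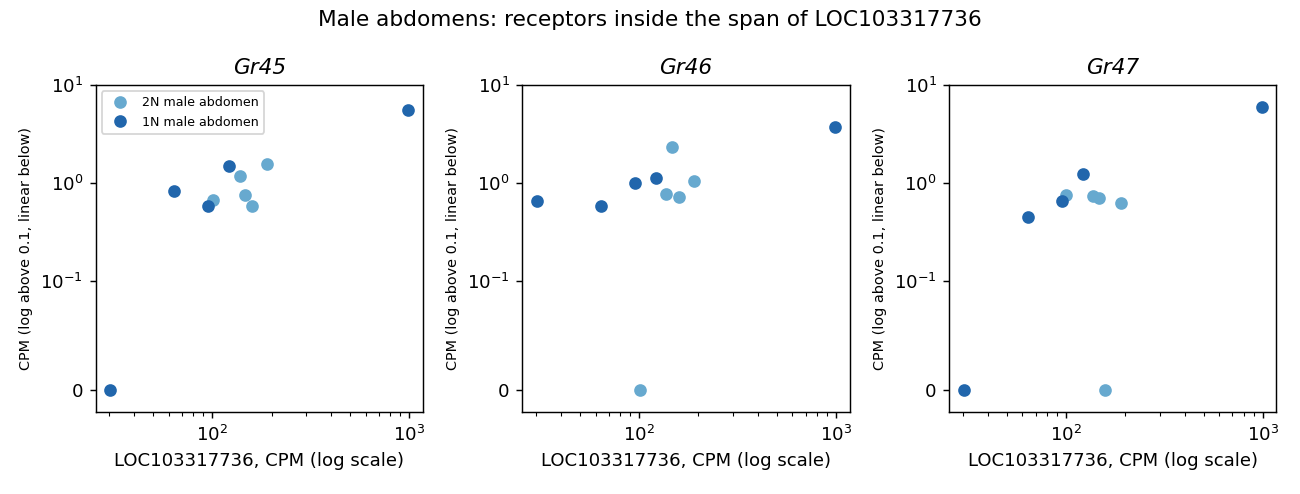
CPM of Gr45, Gr46 and Gr47 (vertical, logarithmic above 0.1 and linear below) against CPM of LOC103317736, whose span holds them (horizontal, logarithmic), in the 10 male abdomen libraries. Library B6A is the point at 985 CPM on the horizontal axis and is also the highest for each receptor (5.58, 3.72 and 5.998 CPM), while the other 9 libraries form a cloud between 30.3 and 189 CPM.

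Gr7, Gr49 and Gr58 were found in heads of both sexes and in male abdomens. Gr7 had 0, 0, 0 and 0.0395 CPM in 2N female abdomens, against 1.48, 2.40, 2.12, 0.242 and 2.14 CPM in 2N males and 1.35, 1.16, 0.354, 2.08 and 0.345 CPM in 1N males. All male libraries lay above all 2N females, a split shared by 42.1% of all genes against 2N males and 37.8% against 1N males. With 1 count over the 2N females the male to female ratio was 188 for 2N males (95% counting interval 33.6 to 7436, adjusted p = 0.000233 by edgeR) and 129 for 1N males (22.9 to 5131, adjusted p = 0.000471). That count is in B26A, without which the fitted log2 differences were -9.18 and -8.55, compared with -7.19 and -6.58 with it. Of its 39 values 7 were not whole, and it overlaps Gr10, for which the same holds.

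Gr49 had 0 counts in 2N female abdomens, against 2.51, 0.520, 1.35, 1.54 and 0.915 CPM in 2N males and 0.742, 0.580, 0, 0.273 and 0 CPM in 1N males. It was at least 53.5-fold lower in 2N females than in 2N males (adjusted p = 0.00163 by edgeR) and at least 15.4-fold lower than in 1N males (adjusted p = 0.00822), although 2 of the 1N males were also at 0 and this call was lost on log2(TPM + 1) (adjusted p = 0.123). Gr58 had 0, 0, 0.116 and 0 CPM in 2N females, against 0.211, 0.747, 1.11, 0.497 and 1.19 CPM in 2N males and 0.787, 0.355, 0.861, 0.511 and 0.345 CPM in 1N males. These groups do not overlap, as for 42.1% of all genes at 2N and 37.8% at usual ploidy. The log2 differences were -4.45 ± 1.10 at 2N (adjusted p = 0.00115 by edgeR) and -4.11 ± 1.09 at usual ploidy (adjusted p = 0.00204). Without B27, which holds all Gr58 counts of 2N females, they were -7.98 and -7.62.

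Gr14 and Gr24 were the weaker calls. Gr14 averaged 0.0412 ± 0.0559 CPM in 2N females (n = 4), 0.355 ± 0.216 CPM in 2N males and 0.304 ± 0.197 CPM in 1N males (SD, n = 5 each). Its differences of -3.08 ± 1.24 (adjusted p = 0.0288 by edgeR) and -2.92 ± 1.24 (adjusted p = 0.0365) were lost without B30 (adjusted p = 0.087 at 2N and 0.106 at usual ploidy), B28A (0.0831 and 0.102) or B27 (0.0652 and 0.0793), at 2N also without B18 (0.0519), and at usual ploidy also without B10 (0.0519) or B8 (0.0708). They were also lost with a term for deep libraries (0.101 at 2N and 0.0995 at usual ploidy), on library totals (0.0523 and 0.0676) and with no filter on low counts (0.0607 and 0.0732). Without B26A they were -4.17 and -3.98. Gr24 had 0 counts in 2N females and averaged 0.274 ± 0.178 CPM in 2N males and 0.228 ± 0.240 CPM in 1N males. It was at least 11.03-fold and 10.7-fold lower in the females (adjusted p = 0.0165 and 0.019 by edgeR), with 2 of the 1N males also at 0. Both Gr24 calls were lost with a term for deep libraries (0.0633 and 0.0627) and on log2(TPM + 1) (0.079 and 0.165). Deep libraries are 1 of 4 in 2N female, 5 of 5 in 2N male and 4 of 5 in 1N male abdomens. Without B8 the fitted log2 difference at usual ploidy was -5.78, compared with -6.37 with it.

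Ploidy in abdomens gave calls in females and none in males. In 2N against 1N male abdomens 0 of 13 receptors passed by edgeR, 0 had an unadjusted p under 0.05, DESeq2 called 0, and 0.0421% of all genes passed. The log2 differences ran from -1.56 (Gr47) to 2.02 (Gr49), with SEs of 1.28 and 1.26. In 3N against 2N female abdomens 3 of 13 passed, all higher in 3N (Gr2, Gr7 and Gr24), where 38.7% of all genes passed and 28.7% were higher. The median log2 difference was 0.83 over the 13 and 0.10 over all genes, and 2 odorant receptors of 48 were higher and 0 lower (median 1.44).

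The calls beside Gr2 rest on few counts. Gr7 had 0.247, 0, 0.0779, 0 and 0.552 CPM in 3N female abdomens, against 0, 0, 0 and 0.0395 CPM in 2N. The 3N to 2N ratio was 16.5 with a 95% counting interval of 2.71 to 677 (edgeR adjusted p = 0.0331). Gr24 had 0, 0, 0, 0.681 and 0.467 CPM in 3N and 0 counts in 2N females, at least 5.29-fold higher (adjusted p = 0.0413). In both genes some 3N libraries are also at 0, so the groups overlap. The Gr7 call was lost without B40A (adjusted p = 0.0533), B36A (0.116), B30 (0.0815), B28A (0.0816) or B27 (0.0983). The Gr24 call was lost without B37A (0.0922), B36A (0.0793), B30 (0.0768), B28A (0.0771), B27 (0.0927) or B26A (0.0746), and with a term for deep libraries (0.068). On log2(TPM + 1) with limma both were lost (adjusted p = 0.607 for Gr7 and 0.17 for Gr24). Gr46 went the other way in value, with 1 count in 3N and 16 in 2N females, and did not pass.

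Heads against abdomens gave calls in every kind of animal. In 2N females 14 of 20 receptors fitted over all libraries passed, all higher in heads, where 80.3% of all 12402 genes passed and 42.6% were higher. In 3N females 13 passed, all higher in heads, where 72.8% of all genes passed and 34.6% were higher. Only Gr2 and Gr3 were detected in any female abdomen group, so most of the 20 entered the fit through heads or male abdomens. That choice in part sets the direction of these differences in females. In 2N males 6 were higher and 3 lower in heads, and in 1N males 6 higher and 4 lower, where 65.3% and 65.1% of all genes passed. The shares of all genes were 32.8% higher and 32.5% lower in heads in 2N males, and 33.4% higher and 31.8% lower in 1N males. Without B21 the number in 2N females was 16. Of 143 odorant receptors 109, 110, 73 and 65 were higher in heads in that order of animals, and 2, 3, 7 and 6 lower.

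Gr32, Gr33, Gr25, Gr26 and Gr28 had the largest bounds of head over abdomen among the members called in 2N males. Gr32 had 1617 counts over the 2N male heads and 0 over the 2N male abdomens, so heads were at least 447-fold higher (adjusted p = 4.15e-06 by edgeR). Also in 2N males, heads were at least 195-fold higher for Gr33 (706 against 0 counts), 85.1-fold for Gr28 (308 against 0), 59.4-fold for Gr25 (215 against 0) and 59.1-fold for Gr26 (214 against 0), with adjusted p between 1.38e-06 and 5.82e-05. Gr28 had no count in any of the 19 abdomens.

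In 1N males the bounds were 44.7-fold for Gr39, 38.3-fold for Gr33, 27.98-fold for Gr26 and 21.1-fold for Gr28, each against 0 counts in abdomens (adjusted p from 9.65e-06 to 0.000869 by edgeR). Gr32 was higher in 1N male heads by 4.99 ± 1.24 on the log2 scale (adjusted p = 0.000937), and by 9.69 without B10, the only 1N male abdomen with Gr32 counts. Lower in male heads were Gr2 and Gr46 in both ploidies (Gr46 -3.17 ± 1.06 in 2N, adjusted p = 0.00909, and -3.41 ± 1.09 in 1N, adjusted p = 0.0068), Gr14 in 2N (-2.63 ± 0.97, adjusted p = 0.0184), and Gr45 and Gr47 in 1N males. The Gr46 difference was -2.56 without B17 and -3.91 without B14 in 2N males, and -2.68 without B6A in 1N males. Among deep libraries alone the 2N call of Gr46 was lost (adjusted p = 0.0677). For the 2N call of Gr14, only 1 fit that left out a library still held the gene (edgeR adjusted p = 0.0433). In the others Gr14 had too few counts to be fitted.

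The last 2 calls depend on B6A. The Gr45 log2 difference in 1N males was -2.95 ± 1.19 (adjusted p = 0.0308 by edgeR), and the call was lost without B6A (adjusted p = 0.183), B5D (0.0679), B3 (0.0519) or B1A (0.0637). The Gr47 difference was -2.94 ± 1.297 (adjusted p = 0.0461), and the call was lost without B6A (0.317), B5D (0.0946), B4A (0.0999), B3 (0.0652) or B2A (0.0696). Both were lost on library totals (0.0526 for Gr45 and 0.0754 for Gr47), and Gr47 with no filter on low counts (0.0617).

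In females, Gr6 and Gr39 were among the receptors higher in heads. Gr6 averaged 0.790 ± 0.519 CPM in 3N female heads against 0.0194 ± 0.0435 CPM in 3N female abdomens, a head minus abdomen log2 difference of 5.53 ± 1.38 (edgeR adjusted p = 0.00059) that was 8.07 without B37A. In 2N females it averaged 1.32 ± 0.421 CPM in heads against 0.0483 ± 0.0350 CPM in abdomens, a difference of 4.66 ± 1.34 (edgeR adjusted p = 0.00214). Gr39 had no count in female abdomens and was at least 17.3-fold higher in 3N heads and 17.7-fold higher in 2N heads (adjusted p = 0.000137 and 0.000179). Gr26 was higher by 4.35 ± 1.00 in 3N females (adjusted p = 0.000362, and 5.06 without B39A or 5.04 without B37A) and by 4.53 ± 1.15 in 2N females (adjusted p = 0.000849, 6.56 without B26A and 3.92 without B25).

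Gr28, with no count in female abdomens, was at least 10.2-fold higher in 3N heads and 4.72-fold higher in 2N heads (adjusted p = 0.00144 and 0.00757 by edgeR, the 2N call lost on log2(TPM + 1) at 0.141). Gr20 had no count in female abdomens and averaged 0.332 ± 0.205 CPM in 3N and 0.177 ± 0.235 CPM in 2N heads (adjusted p = 0.00389 and 0.0217, the 2N call lost without B24 at 0.0597 and on log2(TPM + 1) at 0.183). Gr25 was at least 10.6-fold higher in 2N female heads (adjusted p = 0.00229) and was not called in 3N females. Gr49 was at least 15.7-fold higher in 2N female heads (adjusted p = 0.000234).

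Several female tissue calls rest on a few libraries. In 2N females the calls of Gr24, Gr45, Gr47 and Gr58 (adjusted p = 0.0267, 0.0193, 0.023 and 0.0252 by edgeR) were lost without B23 (0.0656) or B27 (0.0581) for Gr24, B22 (0.156) for Gr45, B30 (0.0518), B28A (0.0541) or B26A (0.0539) for Gr47, and B30 (0.0702), B28A (0.0726), B26A (0.0712) or B24 (0.05) for Gr58. In 3N females Gr58 (log2 4.71 ± 1.19, adjusted p = 0.000671) was kept under every left-out library, at 6.39 without B40A and 3.82 without B33. The 3N calls of Gr7, Gr14, Gr32, Gr45, Gr46 and Gr49 (adjusted p = 0.0263, 0.0243, 0.0232, 0.0151, 0.0282 and 0.0346) were each lost without at least 1 library. These were B38 (0.0644), B37A (0.0611) or B33 (0.0518) for Gr7, B39A (0.0505) or B37A (0.0575) for Gr14, B38 (0.0634) or B32 (0.0788) for Gr32, and B33 (0.051) for Gr45. For Gr46 they were B38 (0.0866), B37A (0.0509), B36A (0.0526) or B31 (0.0591), and for Gr49 B40A (0.0696), B39A (0.0627), B38 (0.0716), B36A (0.0563) or B32 (0.0747).

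Other processing ended some of the same calls. On log2(TPM + 1) with limma the 2N calls of Gr24 (adjusted p = 0.258), Gr45 (0.446) and Gr47 (0.107) and the 3N calls of Gr32 (0.635), Gr45 (0.467) and Gr46 (0.294) were lost. A term for deep libraries ended the 3N calls of Gr7 (0.0596), Gr14 (0.0986) and Gr49 (0.0779). Among shallow libraries alone the 2N call of Gr24 (0.0735) and the 3N calls of Gr7 (0.148) and Gr49 (0.13) were lost, and Gr32 had 0 counts in the 3N libraries that remained.

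The sex difference at 2N differed between tissues for 9 of 20 receptors by edgeR, where 74.5% of all genes passed, 40.3% with a positive and 34.1% with a negative value. Coded as the head difference minus the abdomen difference, it was positive for 8 (Gr2, Gr7, Gr14, Gr39, Gr45, Gr47, Gr49 and Gr58) and negative for Gr32, at -7.47 ± 3.14 (adjusted p = 0.0344). The Gr32 value depends on 1 count in the 2N female abdomen B28A, without which the adjusted p was 1. The calls of Gr14 were lost without B30 (0.0685), B28A (0.0696), B25 (0.0798) or B23 (0.056), of Gr45 without B22 (0.0547) and of Gr58 without B30 (0.055), B28A (0.0564) or B26A (0.0536). On log2(TPM + 1) with limma those of Gr39 (0.251), Gr45 (0.0691) and Gr58 (0.0897) were lost. Without B21 the calls numbered 10.

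The female ploidy effect differed between tissues for 3 of 20 receptors by edgeR, where 32.3% of all genes passed, 9.43% with a positive and 22.9% with a negative head minus abdomen value. These were Gr2, Gr46 and Gr49. Gr46 had 0.103 ± 0.0632 CPM in 3N and 0.0210 ± 0.0287 CPM in 2N female heads, and 0.00825 ± 0.0184 CPM in 3N and 0.136 ± 0.151 CPM in 2N female abdomens, a head minus abdomen value of 6.04 ± 1.96 (adjusted p = 0.0173). Gr49 had 0.636 ± 0.279 CPM in 3N and 0.412 ± 0.305 CPM in 2N female heads, and 0.139 ± 0.202 CPM in 3N against 0 counts in 2N female abdomens, at -4.85 ± 1.90 (adjusted p = 0.049). The Gr49 call was lost in 14 of 19 fits that left out a library, with adjusted p up to 0.153 without B37A. It was also lost with no filter (0.0525), with a term for deep libraries (0.0544) and among shallow libraries alone (0.113), and turned to 0.13 on log2(TPM + 1) (0.786). The Gr46 value was 7.72 without B40A, 6.63 without B24 and 5.14 without B28A, and the call was lost on log2(TPM + 1) with limma (0.45, adjusted p = 0.329). Each Gr46 group here holds 18 counts or fewer. Without B21 the calls numbered 4.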

How the data were processed

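The authors deposited estimated counts (14621 genes) and TPM values (14613 genes), each for 39 libraries. STAR 2.7.11a and RSEM 1.3.1 stand in the submitters' processing notes, with no role named. Genome build, annotation and strand setting: not given in the sources used here. Of the estimated counts 16.8% were not whole, and all were rounded (47 of 1794 receptor values). No columns of other samples were present.

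All 46 receptor symbols matched the RefSeq table of assembly Nvit_psr_1.1, used for names and gene order only. It holds 57 such symbols, of which 11 are pseudogenes. The receptors and gene lists were chosen with earlier results of these data known.

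Genes were tested with edgeR 4.0.16 (R 4.3.3): TMM, filterByExpr, quasi-likelihood F test, two-sided, Benjamini-Hochberg over all genes tested, threshold 0.05. Heads (10846 genes), abdomens (11884) and all libraries (12402) were fitted apart, with one mean per group, for 16 comparisons. SE is the log2 difference divided by the root of F. The fit was tested on simulated data with known changes. Levels are CPM on one TMM scale over all libraries. Where a group has 0 counts, the fold is a bound from 3 counts over the group. Ratios carry exact 95% counting intervals.

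Alternatives were DESeq2 1.42.0, library totals, no filter, limma 3.58.1 on log2(TPM + 1), a term for deep libraries, leaving out each library, leaving out B6A and B39A, other detection floors and, chosen after seeing the data, shallow or deep libraries alone. Named receptors are Gr2, Gr3, all past the threshold in any comparison, and the 10 highest in heads and 5 highest in abdomens by mean CPM. Gr9, Gr10, Gr18, Gr29, Gr40 and Gr52 were named after their values were seen. Of 76 pairs of libraries of one group, 0 differed by as little as sampling noise gives (smallest chi-square per degree of freedom 10.2).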

Additional observations from a re-analysis of the deposited data

Results flagged for a closer look

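Libraries standing apart from the rest of their group were looked for in 79 groups of a named receptor in a group of libraries, and 10 were found. For normally distributed values chance flags about 1 in 20 groups. The rate for low counts was not measured. In abdomens the flags were Gr2 in the 3N female B38 (5.41 CPM, next 1.40), Gr3 in the 2N female B28A (0.156 CPM, next 0.545), Gr3 in the 2N male B16 (2.16 CPM, next 0.832) and Gr24 in the 2N male B18 (0.577 CPM, next 0.256). The 1N male abdomen B6A stood apart for Gr45 (5.58 CPM, next 1.49997), Gr46 (3.72 CPM, next 1.12) and Gr47 (5.998 CPM, next 1.23), and the 2N male abdomen B20 for Gr47 (0 CPM, next 0.630). In heads these were Gr5 in the 2N female B25 (0.661 CPM, next 0.340) and Gr7 in the 2N male B12A (0.0590 CPM, next 0.794).

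Differences between groups that passed a test of the difference itself by edgeR were the following. The ploidy effect in abdomens was larger in females than in males for Gr2 (4.88, adjusted p = 0.000596). The female ploidy effect differed between heads and abdomens for Gr2 (-4.36, adjusted p = 1.17e-05), Gr46 (6.04, adjusted p = 0.0173) and Gr49 (-4.85, adjusted p = 0.049). The 2N sex difference in heads minus that in abdomens was 7.32 for Gr2, 6.52 for Gr7, 3.69 for Gr14, 5.76 for Gr39, 7.50 for Gr45, 6.78 for Gr47, 7.89 for Gr49 and 3.42 for Gr58, and -7.47 for Gr32 (adjusted p from 1.38e-10 to 0.0344).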

How the results depend on the processing

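The 83 receptor calls, with Gr33 for sex in heads at usual ploidy added, were recomputed 1430 times. Of these values 1295 kept their direction and their side of the threshold, 131 missed it, 3 newly passed (all Gr33) and 1 turned round. Receptors called only under an alternative are counted in the numbers of calls below. Of 83 receptor calls 59 were kept in every left-out fit that still held the receptor, and 49 in every such alternative. Fits in which a receptor had too few counts were not counted as losses. This concerns Gr14, which was still fitted in only 1 left-out fit for tissue in 2N males. For tissue in 3N females it was still fitted in 6 such fits, and for sex by tissue at 2N in 10. The value that turned was Gr49, ploidy by tissue in females, at 0.13 on log2(TPM + 1). The cause of this and the following changes was not tested. The number of receptors called for ploidy in female abdomens was 5 with DESeq2, 1 with log2(TPM + 1) and 1 with shallow libraries alone, and for sex in heads at usual ploidy 2 with DESeq2. For heads against abdomens it was 16 with DESeq2 and 22 with no filter in 1N males, 18, 22 and, with deep libraries alone, 16 in 2N males, 8 with shallow libraries alone in 2N females, and 25 with no filter and 6 with shallow libraries alone in 3N females. Ploidy by sex in abdomens gave 3 with no filter and 2 without B6A and B39A. Ploidy by tissue in females gave 0 with log2(TPM + 1), 6 without B6A and B39A and 1 with shallow libraries alone. Receptors detected in heads were 36 at 3 counts and 11 at 0.5 CPM.

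Leaving out each library in turn gave 1 to 4 calls for ploidy in female abdomens, 2 to 3 and 1 to 2 for sex in heads (2N, usual ploidy), 7 to 9 and 8 to 10 for sex in abdomens, 9 to 14, 12 to 16, 8 to 10 and 8 to 11 for tissue (3N females, 2N females, 2N males, 1N males), 2 to 6 for ploidy by tissue and 6 to 10 for sex by tissue. Ploidy by sex in abdomens stayed at 1, the other 4 comparisons at 0, detection in heads at 21, and detection in abdomens at 11 to 12. No paired analysis was possible because library names are not shared between groups.

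At these depths a receptor below about 0.2 CPM has 3 counts or fewer in the shallowest library, so its absence is not shown.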
